A study of Mus musculus with 27 samples.

Results

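Irf1, Irf2, Irf7, Irf9, Stat2, Ifih1, Rsad2, Ifit1 and Isg15 are genes that switch on the interferon response or are switched on by it. They were chosen by name, as 9 of the 38123 genes with a value in every library, and their Ensembl identifiers were mapped to symbols with the GENCODE M21 annotation. The cells were mouse DTCM23/49 embryonic stem cells, an XY line kept on gelatin in serum and leukemia inhibitory factor, in which 4-hydroxytamoxifen at 800 nM deletes the RNase III domain of Dicer, the enzyme that cuts microRNA precursors to size. Polyadenylated RNA was sequenced from 27 libraries in 9 groups of 3 biological replicates. Whole cells were taken before induction (day 0) and on day 4, day 8, day 10 and, by label, day 12 after it, and nucleus and cytoplasm were separated from cells at day 12 and day 0. Every group carried the same conditional Dicer allele. Dicer-deficient colonies were picked and expanded during the course, so time in culture and selection go with the later days, and no library after day 0 carries an ethanol label. All values are levels in FPKM, in which the fragments of a gene are scaled to the length of its transcript and to the mapped fragments of the library.

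Dicer1 itself was checked first. It averaged 16.3 ± 1.47 FPKM in whole cells at day 0, and then 1.41 ± 0.462 at day 4, 1.71 ± 0.173 at day 8 and 1.83 ± 0.124 at day 10 (SD, n = 3 each). In the whole cell libraries labelled day 12 it was at 14.6 ± 1.77 FPKM, 89.7% of day 0 (limma adjusted p = 0.58), so Dicer1 does not show the deletion there. Those 3 libraries are called the libraries labelled day 12 throughout, and no direction after Dicer loss is drawn from them. Dicer1 had 4.20 ± 1.11 FPKM in nuclei at day 12, against 13.3 ± 4.75 FPKM at day 0, and 3.06 ± 0.366 FPKM in the cytoplasm at day 12, against 22.5 ± 1.18 FPKM at day 0. The whole cell libraries of day 0 were the deepest, with 19549798 to 22940032 recovered fragments a library, against 4513670 to 7197097 in later whole cells and 8099411 to 11738276 in the fractions. Replicate 3 of whole cells at day 4, replicate 3 of nuclei at day 0 and replicate 1 of nuclei at day 12 stood apart from their groups, with mean correlations of 0.936, 0.916 and 0.934 to the other replicates. All 7 embryonic stem cell markers, Pou5f1 and Nanog among them, reached 1 FPKM in every group.

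Cells sense foreign or misplaced nucleic acid with receptors such as Ifih1 (Mda5), which binds long double-stranded RNA in the cytoplasm, and answer by making type I interferon. Interferon then acts through Jak kinases on Stat factors, and Stat2 and Irf9 are subunits of the complex ISGF3, which binds interferon-stimulated response elements in the promoters of effector genes such as Isg15, Ifit1 and Rsad2. Irf1 activates and Irf2 mostly represses at overlapping sites, and Irf7 amplifies interferon production. Embryonic stem cells are known for a weak interferon response, and their abundant microRNAs of the miR-290 cluster depend on Dicer.

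The promoter sequences below mark letter matches to the cores of known interferon elements, and they are printed for the listed genes with a match. Whether these matches act as such elements was not tested. A core of the interferon-stimulated response element was searched as GAAA, 2 bases of any kind and GAAA again (TTTC, 2 bases and TTTC on the other strand) in RefSeq promoters of GRCm38.p6, 250 bases before to 50 after a start site. It was present in 1131 of 32851 promoters, 3.44%. A core of the gamma-activated site, TTCNNNGAA, which reads the same on both strands, was present in 2726 promoters, 8.30%. Promoters of all 9 genes were found, and the first core had 3 matches in Isg15, 2 in Ifit1 and 1 each in Irf2, Stat2, Ifih1 and Rsad2, so 6 of the 9 genes held it. Irf1, Irf7 and Irf9 had no match, which says only that these letters are not in those windows. The second core was found in Irf1 and Irf2. Capitals mark the match named on the line (in lines with no name, the response element), and each sequence is given 5′ to 3′ on the strand of its gene, and positions count from the start site. In Isg15 the 3 matches overlap each other and run from -78 to -57.
Isg15, chr4:156200850-156200921, minus strand: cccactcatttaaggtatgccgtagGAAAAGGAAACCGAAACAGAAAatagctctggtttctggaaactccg
Ifit1, chr19:34640760-34640838, plus strand: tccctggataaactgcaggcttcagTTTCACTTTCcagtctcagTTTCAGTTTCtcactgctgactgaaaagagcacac
Rsad2, chr12:26456538-26456597, minus strand: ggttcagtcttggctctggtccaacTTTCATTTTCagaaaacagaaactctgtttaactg
Stat2, chr10:128270251-128270310, plus strand: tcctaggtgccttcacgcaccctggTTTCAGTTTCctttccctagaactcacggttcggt
Irf2, response element, chr8:46739495-46739538, plus strand: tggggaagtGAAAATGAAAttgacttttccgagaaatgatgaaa
Irf2, gamma-activated site, chr8:46739496-46739554, plus strand: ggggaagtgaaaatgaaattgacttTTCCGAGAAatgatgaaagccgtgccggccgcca
Ifih1, chr2:62646206-62646233, minus strand: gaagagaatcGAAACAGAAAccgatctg
Irf1, gamma-activated site, chr11:53769899-53769957, plus strand: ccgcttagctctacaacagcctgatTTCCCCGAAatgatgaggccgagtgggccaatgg
The Ifit1 matches lie between -104 and -76, the Rsad2 match from -120 to -111 and the Stat2 match from -222 to -213. The Irf2 match lies from -241 to -232, at the far edge of the window, and its gamma-activated site, from -224 to -216, lies within the same stretch. The Ifih1 match is past the start site, from 32 to 41, and the Irf1 gamma-activated site lies from -90 to -82.

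MicroRNAs made by Dicer repress mRNAs that pair with their seed, bases 2 to 8, so the seeds of 3 families common in mouse embryonic stem cells are shown with the sites they match. The mature sequences are RefSeq's on GRCm38.p6, and capitals mark the seed.
mmu-miR-294-3p: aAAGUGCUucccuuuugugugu
mmu-miR-20a-5p: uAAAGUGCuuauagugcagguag
mmu-miR-16-5p: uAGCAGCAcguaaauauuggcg
The first seed is shared by miR-291a-3p, miR-295-3p, miR-302b-3p and miR-302d-3p. In the 3′ UTRs of GENCODE M21 on GRCm38, 6 of the 9 genes held a 7-base match to at least 1 of the 3 seeds. Among 20980 UTRs the miR-294 seed matched 14.6%, the miR-20a seed 11.7% and the miR-16 seed 20.1%. Among 13423 UTRs of genes at 0.5 FPKM these shares were 16.7%, 13.8% and 23.7%. They are for single seeds. The share of UTRs with at least 1 of the 3 is not given here, so the 6 of 9 cannot be set against a background. The genes with a miR-294 match were Irf2, Irf9 and Stat2, whose sites are printed 5′ to 3′ with the match in capitals.
Irf2, chr8:46846653-46846682, plus strand: ccttatcttgaAGCACTTacaataggcctt
Irf9, chr14:55609194-55609223, plus strand: cttgtaatctcAGCACTTggaagacagacc
Irf9, chr14:55609367-55609396, plus strand: ctctaaatctaAGCACTTtatatattttat
Stat2, chr10:128292113-128292142, plus strand: aatggtttctgAGCACTTgggaattactcc
The Irf2 match is followed by an A, a stronger kind of match that 2.93% of UTRs hold. The second Irf9 site overlaps a miR-20a match that is also followed by an A, a form held by 3.49% of UTRs. Among UTRs of like length, 13.3% have a miR-294 match in the case of Irf2, 10.3% for Irf9 and 16.3% for Stat2. Irf1 and Stat2 each held 1 miR-16 match, Rsad2 held 2 that overlap, Ifit1 held 1 miR-20a match, and Irf7, Ifih1 and Isg15 held none of the 3. These are matches of letters, and binding was not measured.

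The regulators Irf1, Irf2 and Irf9 were higher in whole cells late in the course, and Stat2 was lower. Irf1, an activator of interferon and antigen presentation genes, had 10.97, 11.3 and 11.6 FPKM at day 0 and 10.4, 10.1 and 7.82 at day 4. It had 13.2, 14.0 and 13.9 at day 8, 16.4, 17.2 and 17.6 at day 10, and 9.82, 9.35 and 10.2 in the libraries labelled day 12. The 3 libraries of day 10 lay above every other whole cell library, and the labelled day 12 libraries lay below all of day 0. Irf2, the repressor, had 0.315, 0.337 and 0.257 FPKM at day 0 and 0.599, 0.290 and 1.21 at day 4. It had 1.86, 1.99 and 2.72 at day 8, 2.71, 3.17 and 2.83 at day 10, and 0.622, 0.583 and 0.728 in the libraries labelled day 12. Irf2 at days 8 and 10 did not overlap with day 0 or day 4, and the day 8 and day 10 libraries overlapped. The Irf2 values at day 0 rest on 15 to 21 fragments a library, and those at day 10 on 43 to 48.

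Irf9, the DNA-binding subunit of ISGF3, had 2.12, 2.00 and 1.83 FPKM at day 0, 1.64, 2.61 and 1.42 at day 4, and 4.00, 3.70 and 3.66 at day 8. It had 4.22, 4.56 and 4.35 FPKM at day 10 and 1.97, 1.96 and 1.61 in the libraries labelled day 12. Every day 10 library was above every day 8 library, and both days were apart from the other 3 groups. Stat2, the partner of Irf9 in ISGF3, went the other way, with 6.76, 5.37 and 6.26 FPKM at day 0 and 5.75, 6.83 and 3.41 at day 4. Stat2 then had 2.62, 2.53 and 3.08 FPKM at day 8, 3.48, 3.13 and 3.06 at day 10, and 6.94, 5.13 and 5.52 in the libraries labelled day 12. Days 8 and 10 lay below all of day 0 and below the libraries labelled day 12, and replicate 3 of day 4 (3.41 FPKM) fell within their range. Irf7, the amplifier of interferon production, stayed low, with group means between 0.240 and 0.686 FPKM, and its highest library was replicate 3 of day 4 at 1.47. That library is among those that stand apart, and without it the day 4 values of Irf7 were 0.326 and 0.261 FPKM.

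The effectors and the sensor were near the lower limit of detection in whole cells. Rsad2 (viperin), an antiviral enzyme of the endoplasmic reticulum, had 0.0259, 0.0305 and 0.0394 FPKM at day 0, was listed at 0 in 2 of the 3 day 4 libraries, and had 0.0355, 0.140 and 0.102 at day 8. At day 10 it had 0.422, 0.254 and 0.470 FPKM, and in the libraries labelled day 12 0.179, 0.111 and 0.139. In fragments this was 3, 3 and 4 at day 0, 13, 6 and 13 at day 10, and 6, 4 and 4 in the libraries labelled day 12, from libraries of day 0 that were deeper. Ifit1, which binds viral RNA, had 0.0421, 0.0829 and 0.0481 FPKM at day 0 and 0.423, 0.276 and 0.471 at day 10. These values rest on at most 8 fragments a library. Ifih1, the double-stranded RNA sensor, had 0.0685, 0.0701 and 0.0574 FPKM at day 0, 0.396, 0.296 and 0.252 at day 8, and 0.327, 0.337 and 0.383 at day 10. For all 3 genes the day 10 libraries were above every day 0 library. The share of all genes separated in this way is not given here. Isg15, a ubiquitin-like protein attached to other proteins, had 0.888, 1.16 and 1.07 FPKM at day 0, 0.536, 0.764 and 0.745 at day 4, and 1.63, 3.20 and 1.95 at day 8. It had 1.11, 1.21 and 3.10 FPKM at day 10 and 2.73, 3.19 and 2.99 in the libraries labelled day 12, where all 3 were above day 0. In fragments, Isg15 had 18 to 20 a library at day 0, 3 to 4 at day 4 and 8 to 20 at day 8. It had 5 to 15 fragments at day 10 and 15 to 20 in the libraries labelled day 12.

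**Figure D1:**
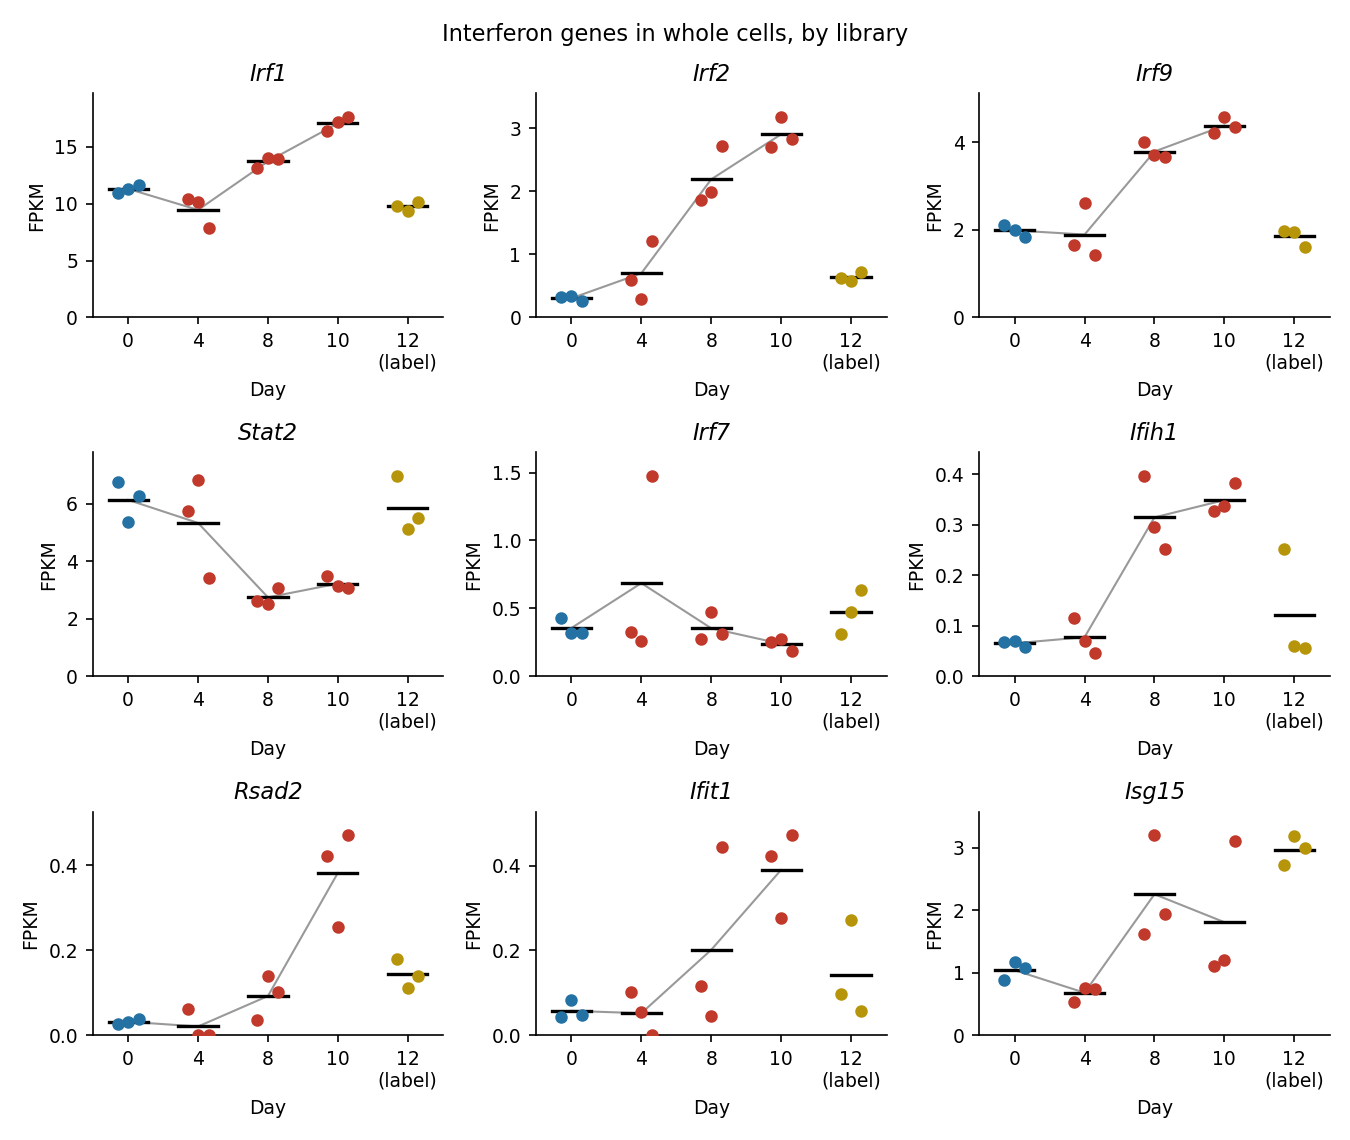
FPKM (y axis, from 0, scaled for each gene) of the 9 genes in whole cells by day (x axis), with a point for each of 3 libraries, a bar for the mean, and a grey line joining the means of days 0 to 10. Blue is day 0, red days 4 to 10 and ochre the libraries labelled day 12, where Irf1, Irf2 and Irf9 lie far below day 10 and Isg15 has its highest mean, 2.97 FPKM.

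Tests used limma on log2(FPKM + 0.5) across all genes whose group mean reached 0.5 FPKM in any group, with Benjamini-Hochberg adjustment over all of them at 0.05. Differences on this scale understate changes of low genes. In whole cells 6 of the 9 genes passed this filter, namely Irf1, Irf2, Irf7, Irf9, Stat2 and Isg15. Irf2 and Irf7 averaged under 0.5 FPKM at day 0 and entered through other groups where they were higher. Over the 5 days, 5 of these 6 differed, where 54.2% of all 15991 genes tested did. Irf7 was the exception (adjusted p = 0.497).

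At day 4 none of the 6 passed against day 0, where 6.7% of all genes were called, and 2 of them, Irf1 and Irf2, had an unadjusted p under 0.05 in limma. The voom test described below also called 0. The Irf1 difference was -0.26 ± 0.095 (SE, adjusted p = 0.155) and that of Irf2 0.51 ± 0.22 (adjusted p = 0.243). By day 8, 4 of the 6 were higher and 1 was lower than at day 0, with a background of 29.8% called, 20.2% higher and 9.62% lower. The log2 difference was 1.73 ± 0.22 for Irf2 (adjusted p = 7.41e-05), 0.79 ± 0.15 for Irf9 (adjusted p = 0.0015) and -1.03 ± 0.19 for Stat2 (adjusted p = 0.0013). Isg15 (0.80 ± 0.27, adjusted p = 0.0403) and Irf1 (0.27 ± 0.095, adjusted p = 0.0486) passed narrowly. The Irf1 call at day 8 was lost under 19 of 27 alternative settings and the Isg15 call under 12 of 27, among them leaving out any library of day 0.

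At day 10, 3 of the 6 were higher and 1 was lower than at day 0, beside 43.7% of all genes called, 27.7% higher and 16% lower. Irf2 averaged 2.91 ± 0.239 FPKM at day 10 and 0.303 ± 0.0412 at day 0 (SD, n = 3 each), a ratio of 9.59 and a log2 difference of 2.08 ± 0.22 (adjusted p = 7.71e-06). Irf9 averaged 4.38 ± 0.174 FPKM at day 10 and 1.98 ± 0.145 at day 0, a log2 difference of 0.97 ± 0.15 (adjusted p = 0.00017). Irf1 averaged 17.1 ± 0.584 FPKM and 11.3 ± 0.326, a difference of 0.57 ± 0.095 (adjusted p = 0.000312). Stat2 averaged 3.22 ± 0.226 FPKM at day 10 and 6.13 ± 0.706 at day 0, a difference of -0.83 ± 0.19 (adjusted p = 0.00354). Isg15 did not pass (0.49 ± 0.27, adjusted p = 0.17), with replicate 3 of day 10 at 3.10 FPKM and the other 2 at or below 1.21. These 4 calls at day 10 held under all 27 alternatives.

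Rsad2, Ifit1 and Ifih1 were under the filter in whole cells and were tested on whole fragments, recovered from the steps between FPKM values, with limma's voom weights. This test was added after the data had been seen. At day 10 against day 0 the log2 difference was 3.42 ± 0.45 for Rsad2 (adjusted p = 1.77e-05), 2.70 ± 0.58 for Ifit1 (adjusted p = 0.00144) and 2.36 ± 0.36 for Ifih1 (adjusted p = 6.46e-05), and 43.4% of the 19732 genes tested in this way were called. The ratio of mean FPKM at day 10 to day 0 was 12.0 for Rsad2, 6.76 for Ifit1 and 5.34 for Ifih1. Ifih1 was already higher at day 8 than at day 0 in this test (2.20 ± 0.36, adjusted p = 0.000206), as was Rsad2, narrowly (1.46 ± 0.54, adjusted p = 0.048), while Ifit1 at day 8 did not pass (1.35 ± 0.65, adjusted p = 0.129). At day 8, 31.3% of all genes were called in this test. Rsad2 at day 10 was also higher than at day 8 (1.95 ± 0.47, adjusted p = 0.0248). The counts behind these genes are small, and counting error is a large part of their spread.

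Between successive days, most calls came at day 8 against day 4. At day 8 against day 4, Irf1, Irf2, Irf9 and Isg15 were higher and Stat2 was lower, 5 of 6, where 19.9% of all genes were called. The log2 differences were 0.52 ± 0.095 for Irf1 (adjusted p = 0.00235), 1.23 ± 0.22 for Irf2 (adjusted p = 0.00233), 0.87 ± 0.15 for Irf9 (adjusted p = 0.0017), 1.19 ± 0.27 for Isg15 (adjusted p = 0.00896) and -0.80 ± 0.19 for Stat2 (adjusted p = 0.0117). With the spread taken from these 2 groups alone none of the 5 passed, and day 4 holds the replicate 3 that stands apart. Calls over all genes moved as well, from 3181 in the main fit to between 351 and 4530 across the alternatives. The share of all genes called in this one fit is not given here, so the loss is not particular to these genes as far as shown. At day 10 against day 8 none of the 6 passed in limma, beside a background of 8.44%, and 1 of them, Irf1, had an unadjusted p under 0.05, with 0.30 ± 0.095 and an adjusted p of 0.068. Without replicate 3 of day 4 in the fit, that Irf1 difference had an adjusted p of 0.00264.

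In the libraries labelled day 12, 1 of the 6 genes, Isg15, passed against day 0, with 2.97 ± 0.233 FPKM in the libraries labelled day 12 and 1.04 ± 0.141 at day 0, a log2 difference of 1.17 ± 0.27 (adjusted p = 0.0122), beside a background of 13.6%. Without replicate 3 of day 4 in the fit, 3 genes passed, with Irf2 at 0.51 (adjusted p = 0.024) and Irf1 at -0.20 (adjusted p = 0.0165) added. The share of all genes called in that fit is not given here, and it ranged from 1062 to 4674 genes across the alternatives (2170 in the main fit). In the voom test Rsad2 was also higher than at day 0 (2.11 ± 0.50, adjusted p = 0.00887). So was Irf2, narrowly (1.10 ± 0.36, adjusted p = 0.0492), beside 16.1% of all genes called in that test. Against day 10, Irf1 (-0.77 ± 0.095), Irf2 (-1.57 ± 0.22) and Irf9 (-1.06 ± 0.15) were lower and Stat2 was higher (0.77 ± 0.19). Their adjusted p in limma were 3.02e-05, 9.37e-05, 9.66e-05 and 0.00566, beside 45.8% of all genes called. In the voom test Ifih1 (-1.73 ± 0.42, adjusted p = 0.00411) and Rsad2 (-1.31 ± 0.43, adjusted p = 0.0256) were also lower than at day 10. Beside them 37.9% of all genes were called in that test.

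In the fractions all 9 genes were measured and Irf7 alone was under the filter. Rsad2, Ifit1, Ifih1, Irf1, Irf2 and Irf9 rose and Stat2 fell between day 0 and day 12 in both fractions. Rsad2 had 6.21, 4.69 and 5.04 FPKM in nuclei at day 12, against 0.177, 0.299 and 0.342 in nuclei at day 0, and 3.20, 2.74 and 2.33 in the cytoplasm at day 12, against 0.139, 0.146 and 0.138 at day 0. All day 12 libraries were above all day 0 libraries, on 111 to 287 fragments at day 12 and 7 to 16 at day 0. The ratio of means was 19.5 in both fractions, with log2 differences of 2.91 ± 0.15 in the nucleus (adjusted p = 2.2e-06) and 2.34 ± 0.15 in the cytoplasm (adjusted p = 4.65e-06). Whole cells with Dicer1 down were last sampled at day 10, so the 5.31 and 2.75 FPKM of Rsad2 in day 12 fractions have no whole cell counterpart, and the whole cell value at day 10 was 0.382.

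Ifit1 had 2.09, 1.23 and 1.32 FPKM in nuclei at day 12, against 0.539, 0.518 and 0.159 at day 0. In the cytoplasm it had 0.824, 0.878 and 1.19 FPKM at day 12, against 0.0848, 0.102 and 0.197 at day 0. The groups did not overlap in either fraction, and the log2 differences were 1.18 ± 0.22 in the nucleus (adjusted p = 0.00255) and 1.22 ± 0.22 in the cytoplasm (adjusted p = 0.00203). Ifit1 has close paralogs, and how fragments that match several of them were shared out is not given in the sources used here, so its values are uncertain. Ifih1 had 0.810, 0.881 and 0.977 FPKM in nuclei at day 12, against 0.292, 0.496 and 0.168 at day 0. Its cytoplasmic values were 0.418, 0.497 and 0.444 FPKM at day 12, against 0.184, 0.122 and 0.0824 at day 0. Ifih1 rose in both fractions, by 0.78 ± 0.17 in the nucleus (adjusted p = 0.00526) and by 0.60 ± 0.17 in the cytoplasm (adjusted p = 0.0193). The cytoplasmic call of Ifih1 was lost when replicate 2 or 3 of either cytoplasmic group was left out.

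Among the regulators, Irf1 had 18.1, 20.5 and 20.6 FPKM in nuclei at day 12, against 12.0, 12.1 and 7.52 at day 0, and 17.9, 17.2 and 19.2 in the cytoplasm at day 12, against 8.07, 9.23 and 8.65 at day 0. Irf2 had 4.58, 4.57 and 4.93 FPKM in nuclei at day 12, against 3.08, 2.12 and 1.74 at day 0, and 4.83, 4.28 and 4.42 in the cytoplasm at day 12, against 0.453, 0.727 and 0.692 at day 0. Irf9 had 5.49, 6.35 and 6.05 FPKM in nuclei at day 12, against 3.50, 3.22 and 4.46 at day 0, and 4.50, 4.52 and 4.75 in the cytoplasm at day 12, against 2.03, 1.67 and 2.07 at day 0. All 3 genes had no overlap between days in either fraction, and Irf2 at day 0 was the lowest of them in the cytoplasm. How common such separation was over all genes is not given here. Stat2 had 9.85, 9.37 and 9.35 FPKM in nuclei at day 12, against 14.3, 13.8 and 13.0 at day 0, and 3.37, 3.09 and 3.32 in the cytoplasm at day 12, against 9.91, 9.31 and 9.34 at day 0. Stat2 was lower at day 12 in all libraries of both fractions. Isg15 had means of 2.41 ± 0.727 FPKM in nuclei at day 12 and 1.52 ± 0.905 at day 0, and 2.12 ± 0.612 FPKM in the cytoplasm at day 12 and 1.41 ± 0.366 at day 0 (SD, n = 3 each). Its libraries overlapped in both fractions.

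In nuclei 6 of the 8 tested genes were higher at day 12 and 1 was lower, beside 36.7% of all 17124 genes called, 15.1% higher and 21.6% lower. In the cytoplasm the counts were also 6 and 1, beside 32.6% called, 16% higher and 16.6% lower. Rsad2, Ifit1 and Ifih1, among the 6 in both fractions, averaged under 0.5 FPKM in both fractions at day 0. They entered the test only because they were high at day 12, so these counts are not independent of the filter. The log2 differences in the nucleus were 0.90 ± 0.16 for Irf1 (adjusted p = 0.00175), 0.91 ± 0.17 for Irf2 (adjusted p = 0.0025), 0.62 ± 0.13 for Irf9 (adjusted p = 0.0044) and -0.50 ± 0.085 for Stat2 (adjusted p = 0.00143). In the cytoplasm they were 1.03 ± 0.16 for Irf1 (adjusted p = 0.000773), 2.16 ± 0.17 for Irf2 (adjusted p = 1.16e-05), 1.08 ± 0.13 for Irf9 (adjusted p = 0.00016) and -1.41 ± 0.085 for Stat2 (adjusted p = 2.73e-06). Isg15 did not pass in nuclei (0.61 ± 0.34, adjusted p = 0.182) or in the cytoplasm (0.45 ± 0.34, adjusted p = 0.358). With the spread taken from the 2 nuclear groups alone, 4 of the 8 passed in nuclei, and the nuclear groups hold 2 of the libraries that stand apart. Across the alternatives 2112 to 6737 of all genes were called in nuclei, against 6281 in the main fit. The share for this one fit is not given here. Of the 3 genes with a miR-294 match printed above, Irf2 and Irf9 were higher and Stat2 was lower in both fractions at day 12.

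**Figure D2:**
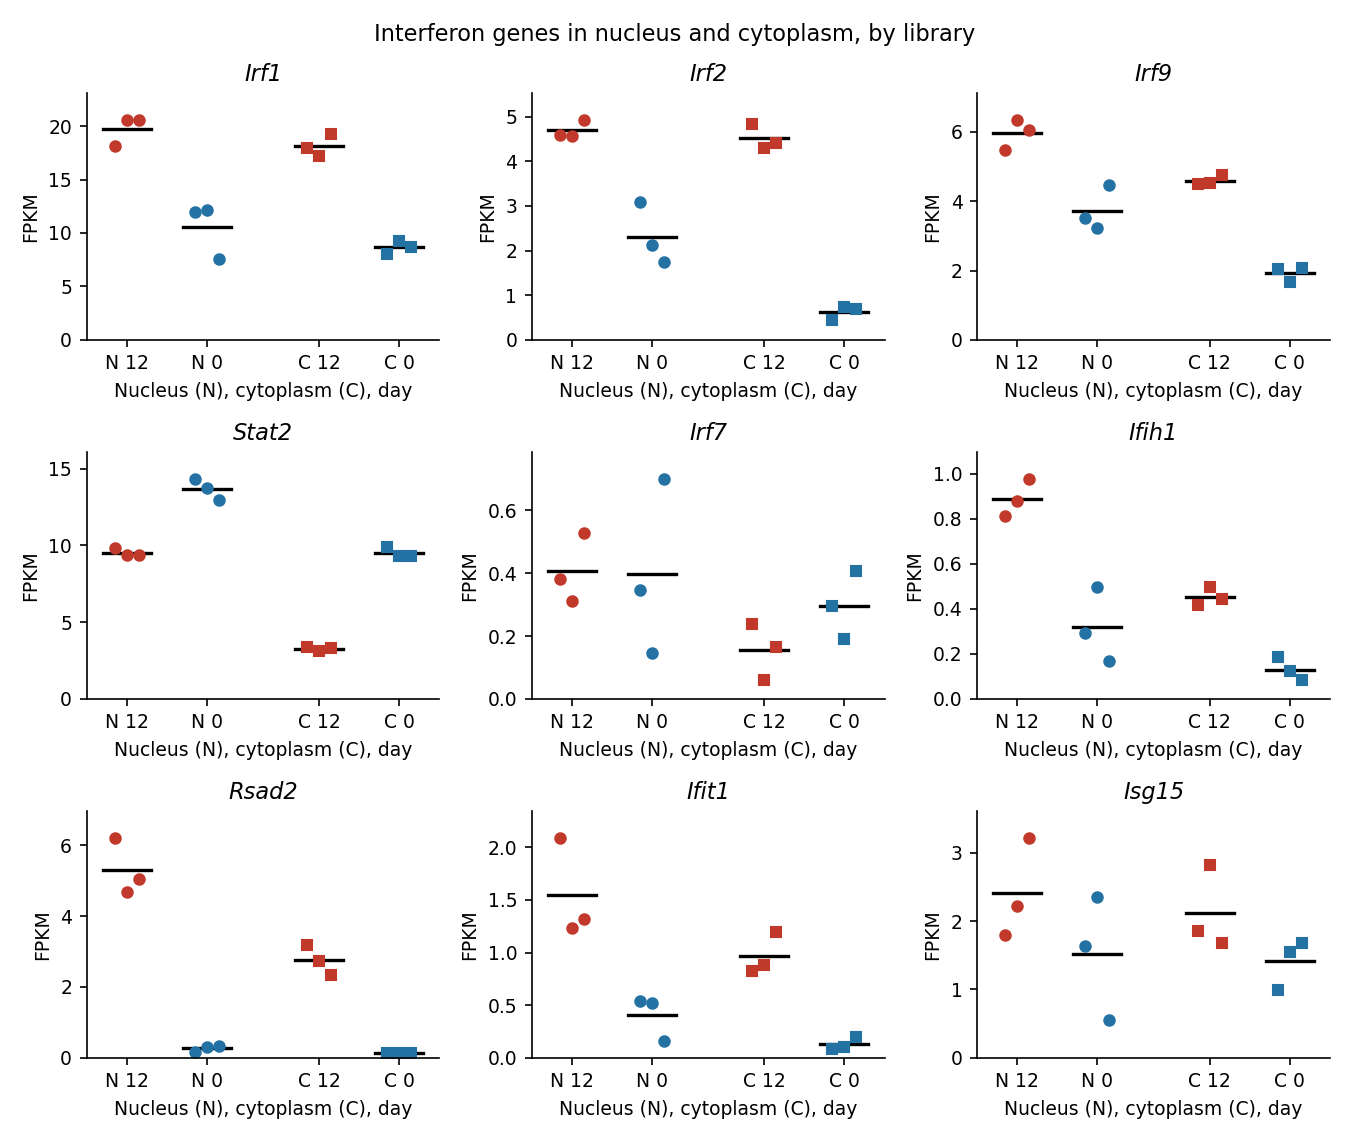
FPKM (y axis, from 0, scaled for each gene) of the 9 genes in nucleus (N, circles) and cytoplasm (C, squares) at day 12 (red) and day 0 (blue), with a point for each of 3 libraries and a bar for the mean. Rsad2 averages 5.31 FPKM in nuclei at day 12 and 0.272 at day 0, and Stat2 lies lower at day 12 in both fractions.

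**Figure D3:**
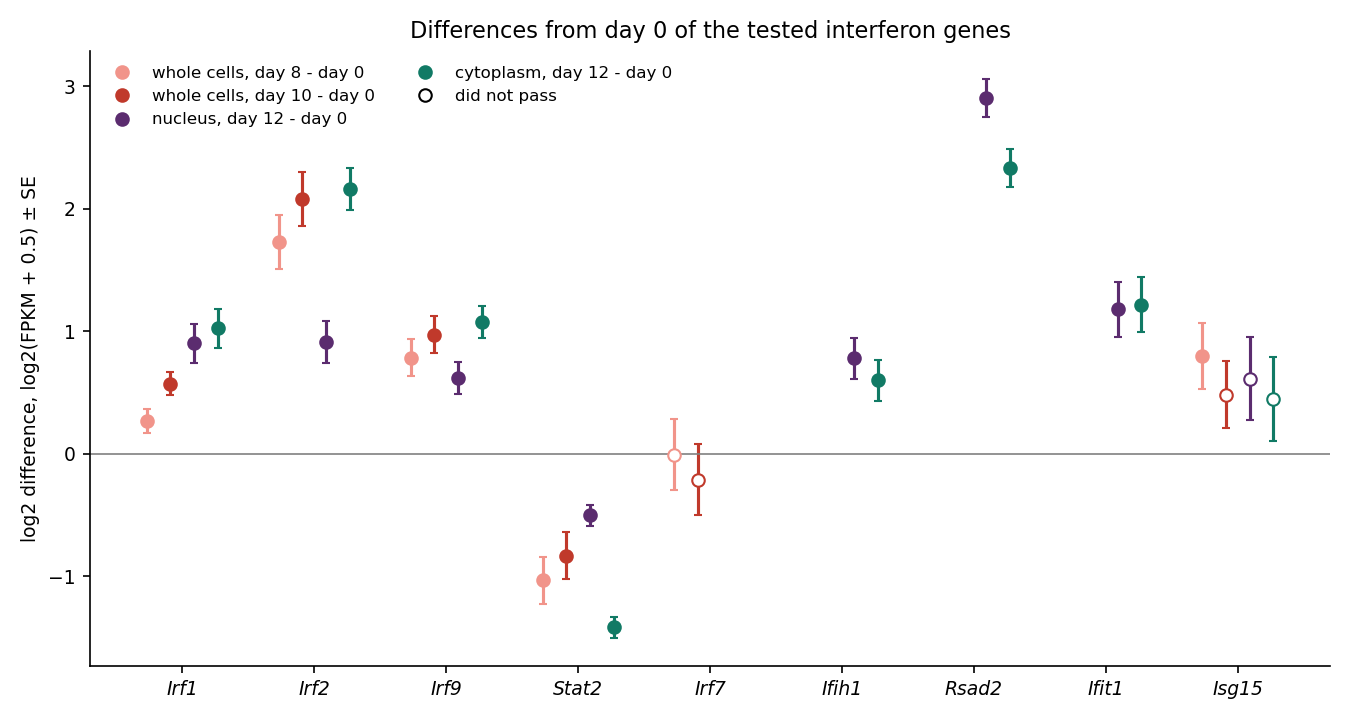
Log2 difference ± SE (y axis) from day 0 for the listed genes that passed the filter, in whole cells at day 8 and day 10 and in nucleus and cytoplasm at day 12, with filled points for differences that passed at an adjusted p of 0.05 and open points for those that did not. Irf1, Irf2 and Irf9 lie above 0 and Stat2 lies below 0 in all 4 comparisons.

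The levels were also compared between nucleus and cytoplasm of the same day. At day 0, Irf2, Irf9 and Stat2 were higher in the nucleus than in the cytoplasm, 3 of 8, where 41.8% of all genes were called. The log2 differences were 1.304 ± 0.17 for Irf2 (adjusted p = 0.0002), 0.80 ± 0.13 for Irf9 (adjusted p = 0.000758) and 0.50 ± 0.085 for Stat2 (adjusted p = 0.000974). Without replicate 3 of nuclei at day 0, which stands apart, 6 of the 8 were higher in the nucleus, with Irf1, Ifih1 and Ifit1 added. The share of all genes called in that fit is not given here. Across the alternatives 5495 to 8483 of all genes were called, against 7152 in the main fit. At day 12, Stat2 (1.42 ± 0.085, adjusted p = 4.98e-06), Rsad2 (0.84 ± 0.15, adjusted p = 0.00214) and Ifih1 (0.54 ± 0.17, adjusted p = 0.03) were higher in the nucleus, again 3 of 8, with a background of 34.1%. The Ifih1 call was lost under 7 of 22 alternatives.

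Only Stat2 and Irf2 changed their nucleus to cytoplasm ratio between the days, 2 of 8 where 1.33% of all genes did. The ratio rose for Stat2, by 0.91 ± 0.12 on the log2 scale (adjusted p = 0.0101), with means of 9.52 FPKM in nuclei and 3.26 in the cytoplasm at day 12, and 13.7 and 9.52 at day 0. For Irf2 it fell by 1.25 ± 0.24 (adjusted p = 0.0359), with means of 4.69 FPKM in nuclei and 4.51 in the cytoplasm at day 12, and 2.31 and 0.624 at day 0. The Stat2 call held under all 22 alternatives, and the Irf2 call was lost under 13 of 22. Rsad2, with 0.57 ± 0.22, did not pass (limma adjusted p = 0.219). Its day 0 values were low, and in the voom test its ratio change was 0.06 ± 0.43 (adjusted p = 0.976). FPKM is scaled within each library, so these ratios compare relative levels and not amounts per cell.

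**Figure D4:**
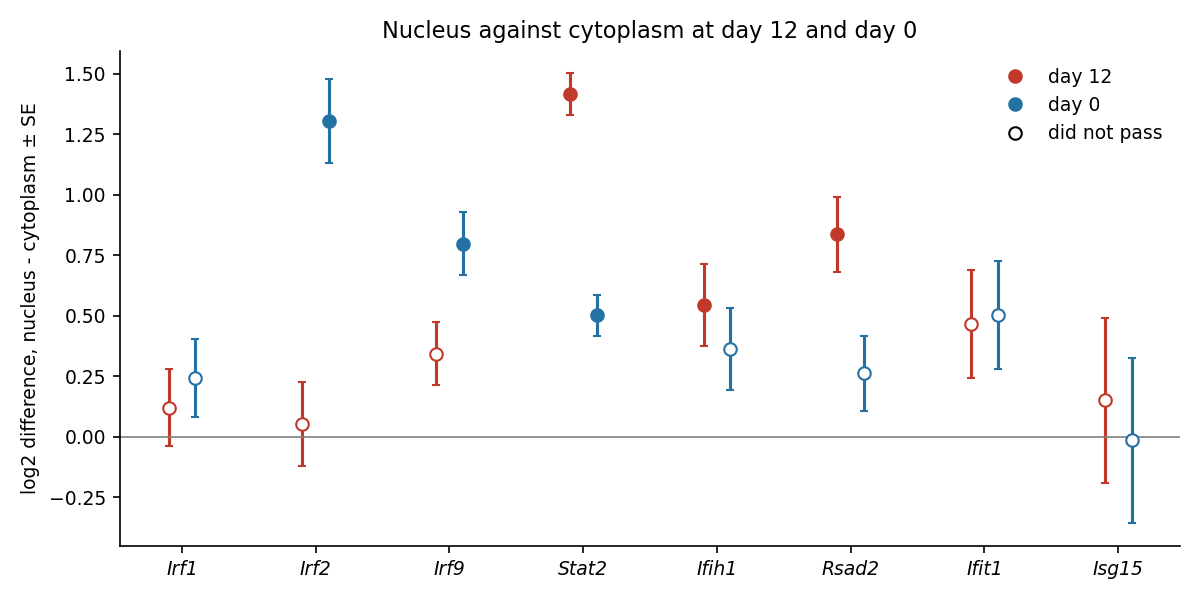
Log2 difference ± SE between nucleus and cytoplasm (y axis) for the 8 listed genes tested in the fractions, at day 12 (red) and day 0 (blue), filled where the difference passed at an adjusted p of 0.05. Stat2 lies at 1.42 at day 12 and 0.50 at day 0, and Irf2 lies at 0.05 at day 12 and 1.304 at day 0.

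Ranked over the 9 groups, Irf1 was highest in nuclei at day 12 (19.7 FPKM), followed by the cytoplasm at day 12 (18.1) and whole cells at day 10 (17.1), whose libraries overlapped their neighbours, then day 8 (13.7), which stood apart from both sides. The other 5 groups of Irf1 ran down to 8.65 FPKM in the cytoplasm at day 0, and each overlapped its neighbour. Irf2 and Irf9 had the same top pair, nuclei and cytoplasm at day 12, with no gap between them for Irf2 and a gap for Irf9. The lowest Irf2 group was whole cells at day 0, at 0.303 FPKM, apart from the cytoplasm at day 0 above it at 0.624. Stat2 was highest in nuclei at day 0 (13.7 FPKM), apart from the next, and lowest in whole cells at day 8 (2.74). The highest over the lowest group mean was 2.28 for Irf1, 3.23 for Irf9, 4.36 for Isg15, 4.45 for Irf7, 4.99 for Stat2, 13.6 for Ifih1 and 15.5 for Irf2. For Irf7 every neighbour in the order overlapped. The lowest Rsad2 and Ifit1 groups, whole cells at day 4, hold libraries listed at 0, so no ratio is given for them. These orders and ratios mix whole cells with fractions. At day 0 both fractions averaged above whole cells for Irf2, Stat2, Ifih1, Rsad2, Ifit1 and Isg15. This was not so for Irf1, Irf7 and Irf9. Rsad2 at day 0 averaged 0.272 FPKM in nuclei, 0.141 in the cytoplasm and 0.0319 in whole cells. The part of this offset in the orders and ratios was not tested.

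Across the 9 group means on the log2 scale, Rsad2 and Ifit1 followed each other with r = 0.98, Irf2 and Irf9 with r = 0.97, and Ifih1 and Ifit1 with r = 0.95. Stat2 had r between -0.40 and 0.33 with the other 8 genes, and Irf7 had r below 0 with each of the others except Stat2. These describe 9 points that share libraries, depth and day, and that mix whole cells with fractions. Among 10999 other protein-coding genes reaching 2 FPKM in a group, the 3 most like each listed gene were found in the same way. For Rsad2 they were Sema5a (r = 0.99), the chemokine Ccl5 (0.98) and Sync (0.98), and for Ifit1 they were Sema5a (0.99), Cd274, which encodes PD-L1 (0.98), and Nfib (0.98). For Irf2 they were Parva, Ddhd1 and Lif, and for Irf9 Ntn4, Lif and Kirrel, all with r of 0.99. For Irf1 they included Actg2, a smooth muscle actin (0.99), and Kifc3 (0.98). Ifih1 was most like Hivep2 (0.99), Pou6f1 (0.99) and Hps5 (0.99), and Stat2 most like Ccdc77 (0.98), B4galnt2 (0.97) and Cntrob (0.97). Irf7 (Hint3, Ciao2b and Mcts1, at most 0.94) and Isg15 (Atg4b, Hdac5 and Spsb2, at most 0.91) had looser matches. Only 5 of these 27 were also among the 3 most like over the 27 single libraries.

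The other genes of the pathway were followed in 7 lists. Some of their tested genes, such as Cgas and Tmem173, averaged under 0.5 FPKM in whole cells at day 0. Such genes passed the filter only through groups where they were higher. Of 16 interferon ligands 13 were matched and none reached the filter. Among these 13, 9, including Ifnb1 and Ifng, were listed at 0 in all 27 libraries, and the highest value was 0.237 FPKM, for Ifnk. Of 11 receptors, Jak kinases and Stat factors 7 were higher and none lower in whole cells at day 10 than at day 0, where 27.7% of all genes were higher and 16% lower, with a median log2 difference of 0.54 against 0.09 over all genes. Jak2, a kinase of the interferon gamma receptor, had 4.403 ± 0.354 FPKM at day 10 and 1.10 ± 0.104 at day 0 (1.62 ± 0.15, adjusted p = 3.07e-06). Ifngr2, a chain of that receptor, rose by 1.04 ± 0.12 and Jak1 by 0.98 ± 0.14, and Ifnar2 (0.54 ± 0.12) also rose. Il10rb passed narrowly (0.61 ± 0.23, limma adjusted p = 0.0468), with 0.636 ± 0.396 FPKM at day 10 and 0.214 ± 0.0266 at day 0. In the fractions 4 of the 11 were higher in nuclei and 6 in the cytoplasm at day 12, and none were lower, where 15.1% of all genes were higher and 21.6% lower in nuclei and 16% were higher and 16.6% lower in the cytoplasm.

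Of 6 other tested Irf genes and Irf2 binding partners 4 were higher and none lower at day 10, beside 27.7% and 16% of all genes, with a median of 0.33. The Irf2 corepressor Irf2bp2 rose by 1.64 ± 0.095, its relative Irf2bpl by 1.06 ± 0.12 and Irf2bp1 by 0.34 ± 0.089. In nuclei at day 12, 2 were higher and 3 lower, beside 15.1% and 21.6% of all genes, and in the cytoplasm 2 were higher and 1 lower, beside 16% and 16.6%. Of 12 nucleic acid sensors and adaptors 8 were higher and none lower at day 10, beside the same 27.7% and 16%, with a median of 0.48. Tmem173 (Sting), the adaptor for cytoplasmic DNA, had 2.89 ± 0.693 FPKM at day 10 and 0.399 ± 0.0413 at day 0 (1.90 ± 0.22, adjusted p = 1.67e-05). Cgas, the enzyme that detects that DNA, had 1.90 ± 0.0886 FPKM and 0.262 ± 0.0551 (1.66 ± 0.16, adjusted p = 3.17e-06). Zbp1 rose by 0.98 ± 0.16, Ticam1 by 0.92 ± 0.23, Traf3 by 0.52 ± 0.19 and Trim25 by 0.49 ± 0.18. In nuclei 7 of 14 were higher and none lower at day 12 (15.1% and 21.6% of all genes), with Tmem173 at 8.66 FPKM against 0.977 at day 0 and Zbp1 at 10.2 against 0.760, and in the cytoplasm 5 were higher and 1 lower (16% and 16.6%).

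Of 23 tested interferon-stimulated effectors 10 were higher and 3 lower at day 10, where 43.7% of all genes were called, 27.7% higher and 16% lower, with a median of 0.30. Higher were Ifi35 (1.09 ± 0.15), the double-stranded RNA-dependent kinase Eif2ak2 (0.96 ± 0.15), the guanylate-binding protein Gbp3 (0.93 ± 0.15) and Xaf1 (0.85 ± 0.21), and lower were the tether of enveloped viruses Bst2 (-1.43 ± 0.11) and Ifitm1 (-1.22 ± 0.18). Bst2 had 49.97 ± 2.39 FPKM at day 10 and 136.2 ± 13.1 at day 0. In nuclei 15 of 29 were higher and 1 lower at day 12, beside 15.1% and 21.6% of all genes, with a median of 0.63 against -0.10 over all genes, and in the cytoplasm 11 were higher and 3 lower, beside 16% and 16.6%, with a median of 0.55. Of 11 negative regulators 4 were higher and none lower at day 10, a share near the 43.7% of all genes called. They were Tnfaip3, an inhibitor of NF-kappaB signalling, at 1.09 ± 0.18 and Rnf125 at 0.91 ± 0.27, Pias1 at 0.40 ± 0.13 and Pias3 at 0.38 ± 0.14. In each fraction 1 of 12 was higher and 1 lower, beside 36.7% of all genes called in nuclei and 32.6% in the cytoplasm. Of 10 genes of class I antigen presentation 5 were higher and 1 lower at day 10, beside 27.7% and 16% of all genes, with a median of 0.58. The peptide-loading chaperone Tapbp had 44.3 ± 1.84 FPKM at day 10 and 11.6 ± 0.406 at day 0 (1.89 ± 0.084, adjusted p = 4.19e-09), Erap1 rose by 1.29 ± 0.18, Tap1 by 1.19 ± 0.13, Psmb8 by 0.85 ± 0.16 and B2m by 0.84 ± 0.21, and H2-K1 fell by 0.46 ± 0.11. In each fraction 5 of the 10 were higher at day 12 and none were lower, beside 15.1% of all genes higher in nuclei and 16% in the cytoplasm.

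**Figure D5:**
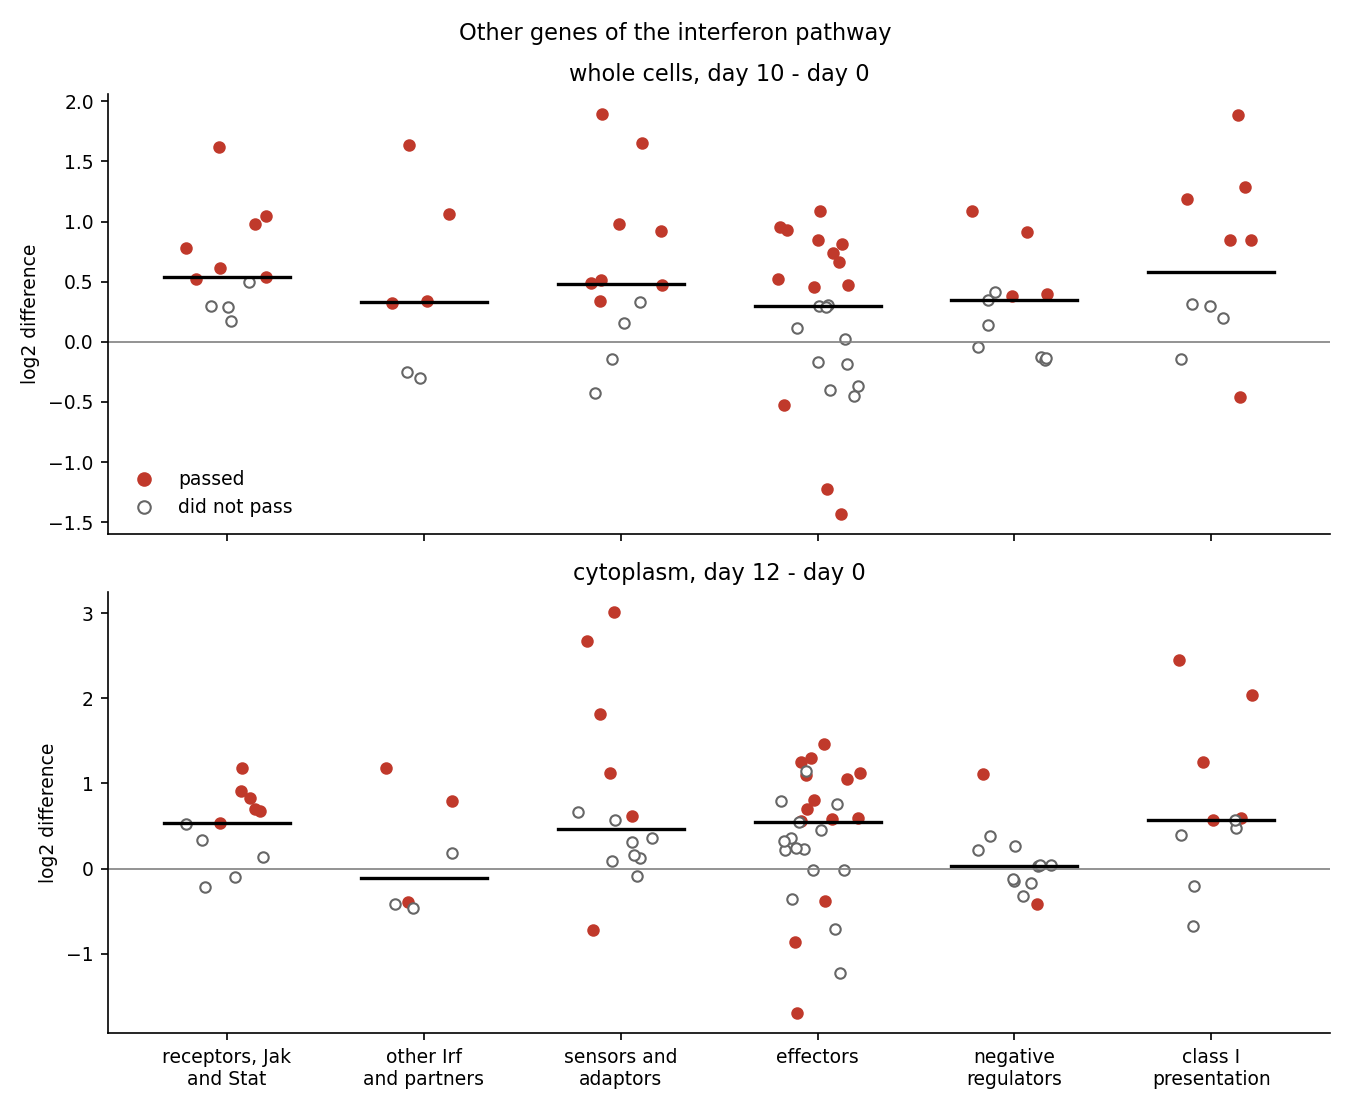
Log2 difference (y axis) of the tested genes in 6 lists of the interferon pathway, in whole cells at day 10 against day 0 (upper) and in the cytoplasm at day 12 against day 0 (lower), red where the gene passed at an adjusted p of 0.05 and open where it did not, with a bar at the list's median. Most called genes lie above 0, and the lowest point in both panels is Bst2.

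Markers of other cells were read in the same libraries. The summed level of 8 leukocyte markers was 50.1 to 56.8 FPKM in whole cells at day 10 and 20.0 to 23.0 at day 0, 59.3 to 76.2 in nuclei at day 12 and 44.6 to 88.3 at day 0, and 49.1 to 54.0 in the cytoplasm at day 12 and 25.1 to 31.9 at day 0. Of the 8, Laptm5 moved most, with 28.5 to 33.3 FPKM at day 10 and 8.25 to 9.58 at day 0. In whole cells 4 of the 8 reached 1 FPKM at day 10, and 3 did at day 0. The pan-leukocyte marker Ptprc and the macrophage marker Lyz2 were listed at 0 in all 3 libraries of day 10. In whole cells at day 0, Lyz2 and Adgre1 were at 0 in all 3 libraries. Thus Lyz2 was at 0 on both days, Ptprc at day 10 alone and Adgre1 at day 0 alone. The libraries of day 10 were shallower than those of day 0, which makes a 0 there less telling. Ptprc and Adgre1 were at 0 in all 3 libraries of nuclei and of cytoplasm at day 12. Lyz2 was so in the cytoplasm at day 12 but not in nuclei. The summed level of 8 fibroblast markers was 10.5 to 11.7 FPKM in whole cells at day 10 and 10.2 to 11.1 at day 0. It was lower at day 12 in both fractions, with 10.9 to 25.6 FPKM in nuclei at day 12 and 36.7 to 101.4 at day 0, and 4.83 to 5.38 in the cytoplasm at day 12 and 9.26 to 11.1 at day 0. The 6 endoderm markers summed to 2.37 to 2.66 FPKM in whole cells at day 10 and 1.17 to 1.31 at day 0, to 2.22 to 2.85 in nuclei at day 12 and 1.20 to 1.89 at day 0, and to 2.29 to 2.82 in the cytoplasm at day 12 and 0.766 to 1.06 at day 0. The 7 embryonic stem cell markers summed to 1638 to 1761 FPKM in the cytoplasm at day 12 and 2605 to 2713 at day 0. There 2 of the 7 were called lower and none higher, beside 16.6% and 16% of all genes. The ranges of their sums overlapped between days in nuclei (996.1 to 2744 at day 12, 1750.1 to 4584 at day 0). They also overlapped in whole cells at day 10 and day 0. Fewer cells of a type and less RNA per cell cannot be told apart in such bulk samples, and the part of these other cells in the results was not tested.

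Positions of the genes come from GENCODE M21 on GRCm38, which is not the build named for the alignment. Irf1 (ENSMUSG00000018899) lies at chr11:53770014-53778374 on the plus strand and overlaps Gm17334 on the other strand. Gm17334 had 4.73 to 6.06 FPKM in whole cells at day 10 and 3.23 to 3.65 at day 0, so it moved with Irf1, and fragments of the 2 could not be told apart if strand was not used in counting, which is not given in the sources used here. Irf2 (ENSMUSG00000031627, chr8:46739732-46847458, plus strand) overlaps 3 predicted genes on the other strand. Irf7 (ENSMUSG00000025498, chr7:141262706-141266481, minus strand) overlaps Phrf1 on the other strand, and Irf9 (ENSMUSG00000002325, chr14:55603571-55610030, plus strand) overlaps Rnf31 on the same strand. Rnf31 had 8.02 to 8.53 FPKM in whole cells at day 10 and 8.81 to 10.4 at day 0, so it did not move with Irf9. Stat2 (ENSMUSG00000040033, chr10:128270559-128292849, plus strand), Ifih1 (ENSMUSG00000026896, chr2:62595798-62646255, minus strand), Rsad2 (ENSMUSG00000020641, chr12:26442746-26456452, minus strand), Ifit1 (ENSMUSG00000034459, chr19:34640871-34650009, plus strand) and Isg15 (ENSMUSG00000035692, chr4:156199424-156200818, minus strand) overlap no other gene.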

How the data were processed

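The authors deposited 1 table per library with an FPKM value for each gene. TopHat2 2.0.9, Cufflinks 1.3.0 and the mm9 build appear in the submitters' processing notes; strand setting and gene annotation were not stated there. Samples were grouped by label. Tests used limma 3.58.1 in R 4.3.3 (eBayes with a trend) on log2(FPKM + 0.5), for genes whose group mean reached 0.5 FPKM in any group, separately for 15 whole cell and 12 fraction libraries, with Benjamini-Hochberg adjustment over all tested genes at 0.05. With 3 replicates a group, p-values set each difference against the spread between replicate libraries. That spread was shared over all groups of a fit and moderated over all tested genes. The listed genes and the pathway lists were chosen with earlier results of these data known. The text names the 9 listed genes, up to 6 called genes of each list at day 10 in order of size, and the 3 genes most like each listed gene. A few genes that this rule selects are not reported here.

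FPKM gives no depth. The low values of a library are whole multiples of the worth of 1 fragment, and fragments were recovered for 24015 of 24093 genes above 0 in at least 3 libraries (99.7%, within 0.02 of a whole number), up to a common factor per gene. Among genes reaching 0.5 FPKM 98.7% were recovered. These fragments entered an alternative with limma's voom weights, with and without at least 10 fragments in place of the FPKM filter. Other alternatives were pseudocounts of 0.1 and 1, no filter and a filter of 1 FPKM, median-of-ratios and quantile scaling, a replicate block, protein-coding and lncRNA genes alone, the compared groups alone, the libraries labelled day 12 left out, and leaving out each library. All scripts that fit many genes were tested on simulated data. Python 3.11.15, pandas 2.3.3, numpy 2.4.6 and matplotlib 3.10.9 were also used.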

Additional observations from a re-analysis of the deposited data

Results flagged for a closer look

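The change of Stat2 and Irf2 from day 0 to day 12 differed between nucleus and cytoplasm in the test of that difference. For Stat2 the difference was 0.91 on the log2 scale, with -0.50 in the nucleus and -1.41 in the cytoplasm. For Irf2 it was -1.25, with 0.91 in the nucleus and 2.16 in the cytoplasm. The Irf2 call (limma adjusted p = 0.0359) was lost under 13 of 22 alternatives, and the Stat2 call held under all 22.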

How the results depend on the processing

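No difference that passed changed its sign under any alternative. The counts of listed genes called that moved by more than 1.5 times are these. Without a filter, 7 genes were called in whole cells at day 10 against day 0 (reported 4), 1 at day 10 against day 8 (reported 0), 8 over the 5 days (reported 5) and 1 for the nucleus to cytoplasm ratio (reported 2). Under each of median-of-ratios and quantile scaling, 3 were called at day 8 against day 0 (reported 5), 2 in the libraries labelled day 12 against day 0 (reported 1) and 1 at day 10 against day 8, and quantile scaling also gave 1 at day 4 against day 0 (reported 0) and 1 for the ratio. With a replicate block 1 was called for the ratio, and no other count moved by over 1.5 times. With only the groups compared, 2 were called in the libraries labelled day 12 against day 0, 0 at day 8 against day 4 (reported 5), 1 at day 10 against day 8 and 4 in nuclei (reported 7). Without the libraries labelled day 12, 3 were called at day 8 against day 0. With voom on recovered fragments, added after the data had been seen, 2 were called in the libraries labelled day 12 against day 0, and 5 differed between the fractions of day 0 (reported 3). With voom on at least 10 fragments, 7 were called at day 10 against day 0, 3 in the libraries labelled day 12 against day 0, 1 at day 10 against day 8 and 8 over the 5 days. Leaving out a library gave 3 to 5 at day 8 against day 0, 1 to 3 in the libraries labelled day 12 against day 0, 0 to 1 at day 4 against day 0, 0 to 1 at day 10 against day 8, 3 to 6 between the fractions of day 0 and 1 to 2 for the ratio. Calls over all genes moved too across the alternatives, with 351 to 4530 at day 8 against day 4 (reported 3181) and 2112 to 6737 in nuclei (reported 6281). More genes are tested without a filter and with voom on fragments, and fewer samples enter with only the groups compared. Otherwise the cause was not tested.

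Scaling moved the split of calls over all genes. The share of calls that were higher at day 10 against day 0 was 63.4% as deposited, 53.3% with median-of-ratios and 44.4% with quantile scaling, and the median of all genes was 0.09, -0.01 and -0.08. At day 8 against day 0 these shares were 67.7%, 56.3% and 45.9%, in the libraries labelled day 12 against day 0 75.4%, 56.2% and 44.9%, at day 8 against day 4 66.2%, 54.0% and 53.0%, and for the ratio 20.7%, 31.6% and 40.9%. Quantile scaling alone moved the share to 56.5% from 72.8% at day 4 against day 0, to 51.1% from 61.6% at day 10 against day 8, to 39.4% from 60.7% for nucleus against cytoplasm on day 0 and to 39.6% from 54.1% on day 12. Same-numbered replicates correlated between -0.36 and 0.27 in their deviations, and in no comparison were all 3 pairs above 0.1, so the numbers were not taken as pairs. At day 8 against day 0 all 3 were above 0, at 0.03 to 0.05, and all 3 numbers correlated best with themselves. Taken over single libraries, 5 of the 27 genes of like pattern were the same. With the added A, 2 of the 9 genes held a seed match (reported 6). Depth limits Rsad2, Ifit1 and Ifih1 in whole cells, with 0 to 21 fragments a library. It also limits Isg15 there, with 3 to 4 fragments a library at day 4 and 8 to 20 at day 8.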
